A study of Mus musculus with 34 samples.

Results

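The subunits of the GABA-A receptor described here are Gabra2 and 6 of its sisters, Gabra3, Gabra4, Gabra5, Gabrb1, Gabrb2 and Gabrg1. They were taken by gene symbol from a deposited table of 16389 mouse genes, and the set was chosen by the FPKM of Gabra2, which was low in untreated mice of every region. All 7 genes were in the table, and all 7 passed the filter for testing, an FPKM (fragments per kilobase of gene, scaled to the reads of the library) of 1 in at least 3 libraries. Since the levels of Gabra2 in untreated mice chose this set, they are described and not tested, and the 6 sisters were named with the same values in view. The RNA came from whole tissue of the cortex, of the hippocampus, and of the thalamus dissected with the striatum, in 34 libraries from male mice that the labels give as C57BL/6. Mice labelled WT CON were not irradiated and received vehicle. Mice labelled GFP-BM CON received whole-body irradiation of 1000 cGy at 4 months of age followed by whole bone marrow of CAG-EGFP mice, in which a ubiquitous promoter drives the green fluorescent protein. Mice labelled GFP-BM REPOP were irradiated and transplanted in the same way and were then given PLX3397, a CSF1R inhibitor that depletes microglia, at 600 ppm in the diet for 14 days, 3.5 months after irradiation, with 6 months of recovery. The transplanted mice were collected 10 months after irradiation, and the age of the WT CON mice was not given in the labels. The 3 groups, in the order given, had 3, 4 and 4 libraries in the cortex, 4 each in the hippocampus, and 4, 3 and 4 in the thalamus, and regions of the same animal were shared between these sets. Irradiation, marrow transplantation and donor cells all separate the transplanted mice from WT CON, so their effects cannot be told apart in any difference from WT CON.

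The GABA-A receptor is a chloride channel built of 5 subunits around a pore, and it carries most fast inhibition in the brain. The usual receptor pairs alpha and beta subunits with a gamma subunit at synapses, or with the delta subunit outside them; GABA binds between alpha and beta subunits, and benzodiazepines bind between an alpha and a gamma subunit. The alpha subunit sets much of a receptor's place and pharmacology: the alpha 2 subunit encoded by Gabra2 is enriched at the axon initial segment of forebrain principal cells, the alpha 3 subunit is found in the reticular thalamus and monoaminergic nuclei, the alpha 4 subunit joins extrasynaptic receptors of the thalamus and dentate gyrus, and the alpha 5 subunit is known for tonic inhibition in the hippocampus. As background from mouse genetics, C57BL/6J mice are known for low Gabra2 expression that goes back to a spontaneous intronic change in that substrain.

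Among the 7 genes, 4 lie in a single cluster on chromosome 5 of the mouse build GRCm38, in the order Gabrg1 (chr5:70751047-70842617), Gabra2 (chr5:70958392-71095849), Gabra4 (chr5:71569734-71658308) and Gabrb1 (chr5:71657921-72149572). Gabra5 lies on chromosome 7 (chr7:57407669-57591016), Gabrb2 on chromosome 11 (chr11:42419515-42632591) and Gabra3 on the X chromosome (chrX:72432676-72656919). Gabra4 and Gabrb1 overlap by 388 bases. Whether reads were counted by strand is not stated, so reads from that overlap cannot be assigned to a single gene. The 250 bases before the annotated start were read for Gabra2, for its chromosome 5 neighbour Gabrg1 and for Gabra3, because Gabra2 differed most between groups, Gabrg1 shares its cluster and Gabra3 differed little in cortex and thalamus. They are printed 5′ to 3′ from RefSeq on GRCm38.p6, in lower case, with capitals for matches on either strand to GGGCGG (the GC box), to the CCAAT box and to TATAAA (the TATA box). The core of the cyclic AMP response element, TGACG, was searched as well, and no searched motif overlaps another in these windows.
Gabra2, chr5:71095850-71096099, minus strand: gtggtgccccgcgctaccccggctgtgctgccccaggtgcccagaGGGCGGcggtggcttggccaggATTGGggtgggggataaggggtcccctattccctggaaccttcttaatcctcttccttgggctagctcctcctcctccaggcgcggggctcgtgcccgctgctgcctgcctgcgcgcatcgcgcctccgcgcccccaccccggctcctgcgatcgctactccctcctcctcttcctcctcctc
Gabrg1, chr5:70842618-70842867, minus strand: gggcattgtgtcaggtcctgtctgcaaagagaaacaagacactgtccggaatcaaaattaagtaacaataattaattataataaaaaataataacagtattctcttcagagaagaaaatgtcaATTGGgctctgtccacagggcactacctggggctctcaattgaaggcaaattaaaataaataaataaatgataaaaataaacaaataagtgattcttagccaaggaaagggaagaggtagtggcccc
Gabra3, chrX:72656920-72657169, minus strand: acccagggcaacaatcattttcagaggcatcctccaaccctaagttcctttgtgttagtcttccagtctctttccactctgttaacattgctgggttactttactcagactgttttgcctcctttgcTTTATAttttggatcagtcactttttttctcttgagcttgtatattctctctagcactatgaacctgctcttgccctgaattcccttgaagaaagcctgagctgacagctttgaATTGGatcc
The Gabra2 window held 70.0% G and C, above 90.8% of the 32851 windows of that length, whereas the Gabrg1 window held 35.6% (percentile 5.41) and the Gabra3 window held 42.4% (percentile 16.9). GGGCGG, found in 32.7% of all windows, occurred once upstream of Gabra2 and in neither of the other windows. CCAAT, found in 33.8% of windows, occurred once in each, and TATAAA, found in 12.4%, occurred once upstream of Gabra3 only. TGACG, found in 17.8% of windows, was in none of them. These matches describe the letters and not binding. The transcripts showed another order from the windows, since the longest transcript of Gabra2 was 38.4% G and C and that of Gabrg1 35.3%, below 41.5%, under which lay the 1388 tested genes poorest in G and C. The longest Gabrb1 transcript, at 40.9%, was among them too, and those of Gabra3, Gabra4, Gabra5 and Gabrb2 held 43.1%, 42.2%, 47.1% and 44.0%.

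The libraries held 17085018 to 26010509 reads, and Gabra2 was read 27 to 1768 times per library. The bone marrow-derived macrophage list, 6 genes such as Ms4a7 and Apobec1, separated the groups of the cortex by its mean log2 value, at 1.21 to 1.36 in WT CON, 1.70 to 2.03 in GFP-BM CON and 3.19 to 3.77 in GFP-BM REPOP. It also separated those of the thalamus, at 1.708 to 2.021, 2.629 to 2.724 and 3.654 to 4.253 in the same order. In the hippocampus neighbouring groups overlapped, at 1.47 to 2.031, 1.871 to 3.325 and 3.031 to 4.031. Of the 12 libraries labelled hippocampus, 3 went against that label. The mean of 7 hippocampal markers was -0.23 in WT CON replicate 2, -0.08 in GFP-BM REPOP replicate 1 and 1.07 in GFP-BM REPOP replicate 4, no higher than in the cortex, where it reached 1.60, while the other 9 libraries stood at 2.75 to 3.80. Choroid plexus markers ran from 0.755 to 6.37 over the hippocampus libraries. Thalamus markers stood at 3.67 to 4.76 in the thalamus libraries, above every library of the other regions. Results of the hippocampus are therefore given with and without these 3, and "hippocampus" means the label. Cortex markers there ran from 3.37 to 4.08 in GFP-BM REPOP, 2.75 to 3.13 in GFP-BM CON and 2.55 to 2.73 in WT CON. Striatum markers ran from 1.91 to 6.62, 2.61 to 2.83 and 1.94 to 5.08 in the same order. Leaving out the 3 libraries does not remove the gap in cortex markers. The part of such tissue differences in the subunit differences was not tested. The libraries also differed in a GC measure, the median log2 level of the 1388 tested genes with the most G and C minus that of the 1388 with the least. It ran from 0.753 to 1.24 in WT CON against 0.411 to 0.994 in transplanted mice of the cortex, from 1.75 to 3.39 against 0.713 to 2.60 in the hippocampus, and from 1.09 to 3.65 against 0.453 to 0.938 in the thalamus. Where it is high, genes poor in G and C read low, and Gabra2, Gabrb1 and Gabrg1 belong to the 1388 with the least. The mean log2 value of 7 neuron markers also ran lower in WT CON, at 7.22 ± 0.37 (SD, n = 4) against 7.60 ± 0.015 in GFP-BM CON (n = 3) and 7.57 ± 0.04 in GFP-BM REPOP (n = 4) of the thalamus. In the hippocampus it was 7.11 ± 0.40 against 7.51 ± 0.14 and 7.45 ± 0.22 (n = 4 each), with the lowest value of all 34 libraries, 6.55, in WT CON replicate 1, which was also the lowest for Gabra2. In the cortex it was 7.89 ± 0.02 (n = 3) against 7.99 ± 0.04 and 7.95 ± 0.07 (n = 4 each), and the part of neuron content in the subunit differences was not tested. In whole tissue, fewer cells of a type and less RNA per cell cannot be told apart.

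Gabra2 was lower in WT CON than in transplanted mice of every region, without overlap between libraries. In the cortex it stood at 6.38, 3.16 and 8.48 FPKM in WT CON, at 17.4, 17.5, 24.1 and 23.2 FPKM in GFP-BM CON, and at 14.3, 18.4, 22.6 and 28.4 FPKM in GFP-BM REPOP. The highest WT CON library stayed below the lowest transplanted one. In the hippocampus the WT CON libraries held 0.474, 0.975, 1.30 and 1.98 FPKM, the GFP-BM CON libraries 8.99, 7.42, 26.2 and 5.95 FPKM, and the GFP-BM REPOP libraries 4.85, 8.62, 3.28 and 5.53 FPKM. All 4 WT CON libraries were lower than all 8 others, and GFP-BM CON replicate 3 was the highest of the region. In the thalamus the values were 4.61, 0.582, 1.28 and 1.65 FPKM in WT CON, 16.3, 20.5 and 16.4 FPKM in GFP-BM CON, and 16.4, 16.2, 31.3 and 14.97 FPKM in GFP-BM REPOP. There the 4 WT CON libraries stood farthest below the rest, and 6 of the 7 transplanted libraries fell between 14.97 and 20.5 FPKM.

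**Figure D1:**
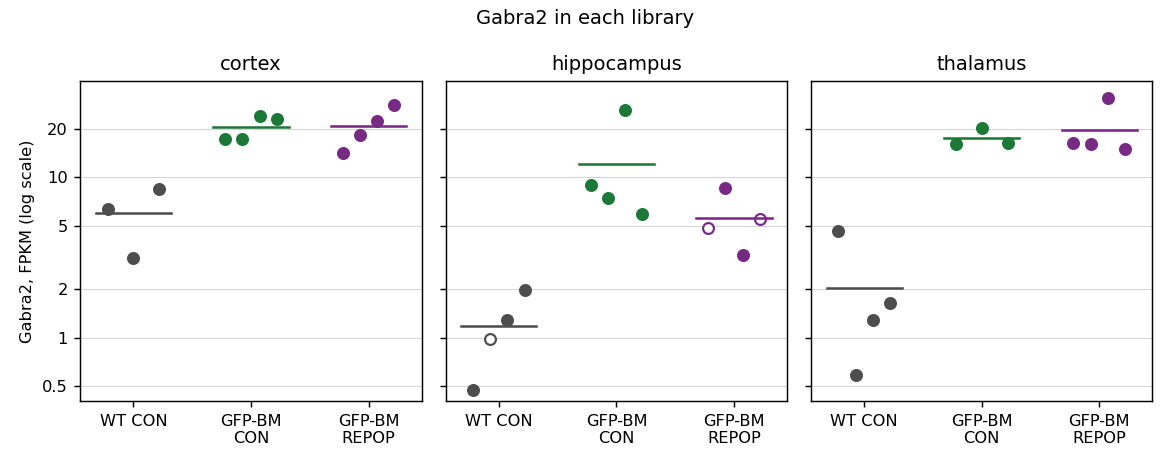
Gabra2 in FPKM on a log axis for each of the 34 libraries, by region and group; points are libraries, lines are group means, and open points are the 3 libraries labelled hippocampus that were low in hippocampal markers. In the thalamus the WT CON libraries lie between 0.582 and 4.61 FPKM and the transplanted ones between 14.97 and 31.3 FPKM.

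For the cortex the ratio of group means over WT CON was 3.42 in GFP-BM CON and 3.48 in GFP-BM REPOP, for the hippocampus 10.3 and 4.72, and for the thalamus 8.72 and 9.7. Single libraries moved these ratios by over 1.5 times, since without GFP-BM CON replicate 3 the hippocampus ratio of 10.3 was 6.31, and without WT CON replicate 1 the thalamus ratios were 15.1 and 16.8. On the log2(FPKM + 0.1) scale, used for every log2 difference, GFP-BM CON exceeded WT CON by 1.85 ± 0.30 (SE) for cortex, 3.14 ± 0.49 for hippocampus and 3.41 ± 0.52 for thalamus. GFP-BM REPOP exceeded WT CON by 1.85 ± 0.30, 2.21 ± 0.49 and 3.50 ± 0.48 in the same order. Both sets share the WT CON libraries. Groups without overlap and higher in the transplanted mice were found for 11.5%, 5.42% and 14.6% of the 14710 genes tested in GFP-BM CON of cortex, hippocampus and thalamus and for 4.89%, 2.12% and 11.9% in GFP-BM REPOP. Without the 3 doubtful hippocampus libraries the Gabra2 differences there were 3.11 ± 0.60 for GFP-BM CON and 2.196 ± 0.717 for GFP-BM REPOP. Within WT CON alone, the highest library held 2.68 times the Gabra2 of the lowest in the cortex, 4.18 times in the hippocampus and 7.92 times in the thalamus.

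GFP-BM REPOP was not separated from GFP-BM CON for Gabra2 in any region, a comparison that was tested. Its difference leaves out the WT CON levels, but its standard error and p-value rest on the spread of all 3 groups of the region, WT CON included. For cortex the difference was -0.00 ± 0.28 (SE, limma adjusted p = 0.9997). For hippocampus it was -0.93 ± 0.49 (limma adjusted p = 0.471), and for thalamus 0.09 ± 0.52 (limma adjusted p = 0.9999). In the hippocampus it became -0.91 ± 0.68 without the doubtful libraries (adjusted p = 0.594). In all 3 regions the groups overlapped library by library, and these tests do not show that the groups were alike.

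As a share of the summed FPKM of the 4 alpha subunits Gabra2 to Gabra5, Gabra2 made up 6.55% ± 2.64 in WT CON cortex (SD, n = 3) against 18.9% ± 1.77 in GFP-BM CON and 19.3% ± 4.23 in GFP-BM REPOP. In the hippocampus the shares were 1.56%, 11.2% and 6.91%, and in the thalamus 3.28%, 19.8% and 20.9%. Gabra2 gave the smallest share of the 4 in each group except GFP-BM CON of the hippocampus, where Gabra3 also stood at 11.2%. The subunits with a larger share in WT CON differed by region, with Gabra3 at 44.5% in WT CON of the thalamus against 30.0% and 27.7% in the transplanted groups, and Gabra5 at 62.6% ± 12.6 in WT CON of the hippocampus against 59.3% ± 7.86 and 43.5% ± 16.3 (SD, n = 4 each). Without the 3 doubtful libraries the Gabra5 shares were 67.9% ± 7.95 (n = 3), 59.3% ± 7.86 (n = 4) and 56.2% ± 12.1 (n = 2), and the Gabra2 shares 1.58%, 11.2% and 6.74%. By mean FPKM Gabra2 ranked 6, 7 and 7 among the 7 genes in WT CON of cortex, hippocampus and thalamus, 5, 4 and 5 in GFP-BM CON, and 5 in each region of GFP-BM REPOP. The cortex order around it was close, since Gabrb1 held 8.52 ± 2.47 FPKM and Gabra2 6.01 ± 2.68 FPKM (SD, n = 3) in WT CON, values within each other's spread. These orders rest on the gene lengths behind the deposited FPKM, which from the values came to 2403 bases for Gabra2, 1869 for Gabrb1 and 7587 for Gabrb2, against longest transcripts of 5852, 13737 and 3989 bases.

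**Figure D2:**
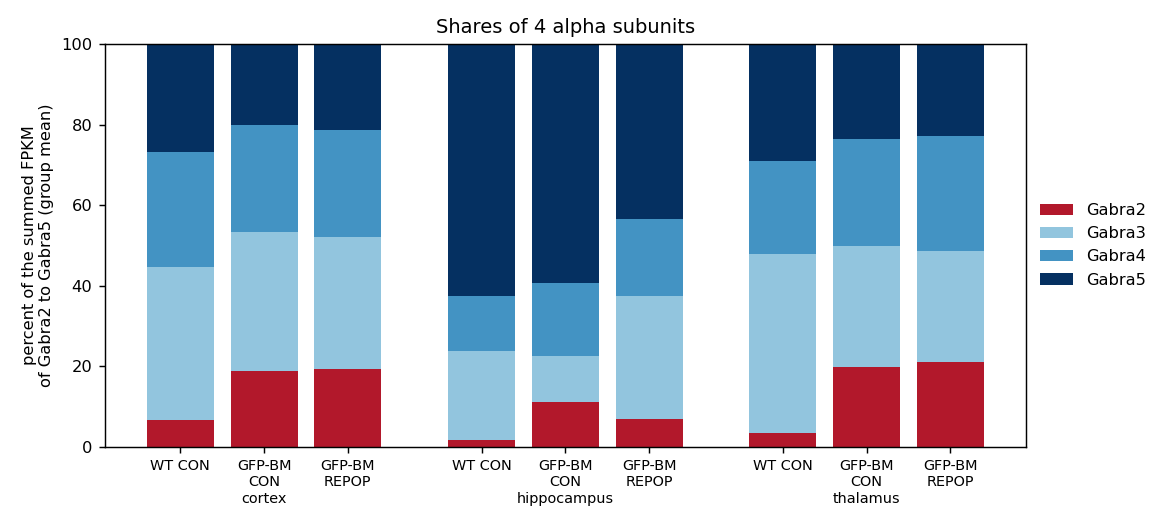
Stacked bars of the mean percent of summed FPKM that each of the 4 alpha subunits Gabra2 to Gabra5 made up in each group, by region, on an axis from 0 to 100. The Gabra2 band is 3.28% in WT CON of the thalamus against 19.8% and 20.9% in the transplanted groups.

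The 6 sisters did not share this pattern as a set, and the beta subunits Gabrb2 and Gabrb1 came closest to it. In the thalamus Gabrb2, the beta 2 subunit, stood at 21.2, 2.52, 3.27 and 9.95 FPKM in WT CON, at 44.5, 49.6 and 34.9 FPKM in GFP-BM CON, and at 37.2, 46.5, 44.9 and 30.9 FPKM in GFP-BM REPOP. The groups did not overlap, and WT CON replicate 1 came nearest to the transplanted libraries. The log2 difference from WT CON was 2.69 ± 0.59 for GFP-BM CON (SE, limma adjusted p = 0.0625) and 2.58 ± 0.55 for GFP-BM REPOP (adjusted p = 0.0532), so neither passed 0.05. Gabrb1, the beta 1 subunit, held 6.76, 2.76, 3.30 and 4.08 FPKM in WT CON, 14.3, 13.4 and 9.74 FPKM in GFP-BM CON, and 10.6, 13.0, 14.9 and 11.3 FPKM in GFP-BM REPOP. The WT CON libraries were again all below the rest. Gabrb1 rose in GFP-BM REPOP by 1.61 ± 0.25 (adjusted p = 0.0246), the single sister to pass the test in any of the 9 comparisons, where 0.836% of all tested genes passed in either direction. In GFP-BM CON the same log2 difference of 1.60 ± 0.27 had an adjusted p of 0.0583, and 0% of genes passed (3045 had an unadjusted p under 0.05). The Gabrb1 call was lost on leaving out WT CON replicate 3 or 4 or GFP-BM REPOP replicate 1, 2 or 3 (adjusted p = 0.0686 to 0.121), and it was lost with a correction for GC content, described further on.

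Gabrg1, the gamma 1 subunit of the amygdala and other restricted sites, read 6.11, 0.896, 2.99 and 5.90 FPKM in WT CON of the thalamus, 8.90, 8.68 and 8.72 FPKM in GFP-BM CON, and 9.23, 9.95, 9.23 and 5.60 FPKM in GFP-BM REPOP. GFP-BM CON did not overlap with WT CON, whereas GFP-BM REPOP replicate 4 fell among the WT CON values. The log2 differences were 1.44 ± 0.53 (adjusted p = 0.195) and 1.36 ± 0.49 (adjusted p = 0.155). Gabra4, the alpha 4 subunit, ranged from 2.90 to 22.1 FPKM in WT CON, 17.6 to 29.3 FPKM in GFP-BM CON and 23.9 to 28.0 FPKM in GFP-BM REPOP, with log2 differences of 1.08 ± 0.55 (adjusted p = 0.270) and 1.22 ± 0.51 (adjusted p = 0.186). GFP-BM REPOP lay above WT CON without overlap and GFP-BM CON did not. Gabra3 and Gabra5 gave differences of 0.13 to 0.53 with adjusted p of 0.330 or more. Counted without a test, 3 of 6 sisters lay above WT CON without overlap in each transplanted group of the thalamus, where 14.6% of all tested genes did in GFP-BM CON and 11.9% in GFP-BM REPOP. They were Gabrb1, Gabrb2 and Gabrg1 in GFP-BM CON and Gabra4, Gabrb1 and Gabrb2 in GFP-BM REPOP. The median log2 difference of the 6 sisters was 1.26 and 1.29, against -0.06 and -0.05 over all tested genes. In WT CON replicate 2, the lowest library for all 6 sisters of that group, the GC measure was 3.65 and the neuron marker mean 6.70, and their part in these differences was not tested.

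In the hippocampus no sister passed the test in any comparison, against 0% of all tested genes called for GFP-BM CON against WT CON (3517 with an unadjusted p under 0.05), 0.0136% for GFP-BM REPOP against WT CON (1423) and 0.0272% for GFP-BM REPOP against GFP-BM CON (1716). Gabrb2 came nearest, at 1.34, 1.70, 3.26 and 2.74 FPKM in WT CON, 11.5, 13.1, 34.2 and 4.97 FPKM in GFP-BM CON, and 6.14, 11.1, 3.14 and 7.61 FPKM in GFP-BM REPOP. GFP-BM CON lay above WT CON without overlap, by a log2 difference of 2.52 ± 0.53 (SE, limma adjusted p = 0.0715), and GFP-BM REPOP overlapped with WT CON, at 1.54 ± 0.53 (adjusted p = 0.437). Gabrb1 held 2.14, 2.35, 4.82 and 3.98 FPKM in WT CON, 9.05, 8.34, 9.05 and 4.998 FPKM in GFP-BM CON, and 4.25, 4.67, 3.35 and 5.57 FPKM in GFP-BM REPOP. It likewise stood above WT CON without overlap in GFP-BM CON, by 1.26 ± 0.28 (adjusted p = 0.0715). Without the 3 doubtful libraries the GFP-BM CON differences were 2.41 ± 0.64 for Gabrb2 and 1.12 ± 0.31 for Gabrb1 (adjusted p = 0.225 for both).

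Gabra3 and Gabra5 differences in the hippocampus depended on the doubtful libraries. Gabra3 stood at 10.5, 26.4, 14.4 and 6.66 FPKM in WT CON, 11.3, 11.7, 15.2 and 7.96 FPKM in GFP-BM CON, and 30.2, 23.1, 15.4 and 26.0 FPKM in GFP-BM REPOP, and the 3 highest values were those of the 3 libraries low in hippocampal markers. It was the single sister for which GFP-BM REPOP did not overlap with GFP-BM CON, where 4.12% of all tested genes lay higher without overlap (1.41% in the cortex and 2.32% in the thalamus), with a log2 difference of 1.02 ± 0.36 (adjusted p = 0.328) that fell to 0.74 ± 0.33 without those libraries (adjusted p = 0.495). Gabra5, whose transcript is characteristic of the hippocampus, read 29.0, 30.1, 52.4 and 70.7 FPKM in WT CON, 74.1, 63.5, 59.6 and 43.8 FPKM in GFP-BM CON, and 21.5, 44.5, 49.9 and 23.6 FPKM in GFP-BM REPOP. The 3 doubtful libraries were 3 of its 4 lowest, and the difference of GFP-BM REPOP from GFP-BM CON was -0.86 ± 0.34 with them (adjusted p = 0.372) and -0.33 ± 0.32 without them (adjusted p = 0.673). Gabra4 and Gabrg1 overlapped in all 3 pairs of groups.

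In the cortex the alpha subunits among the sisters varied little and the beta subunits more. Gabra3 lay between 31.98 and 40.1 FPKM, Gabra4 between 22.6 and 31.8 FPKM and Gabra5 between 17.8 and 26.0 FPKM over all 11 libraries, and their log2 differences from WT CON ran from -0.14 to 0.15 with adjusted p of 0.434 or more. Gabrb2 held 35.2, 15.6 and 41.1 FPKM in WT CON, 47.9, 49.4, 54.2 and 46.2 FPKM in GFP-BM CON, and 30.0, 50.5, 48.5 and 55.6 FPKM in GFP-BM REPOP. GFP-BM CON lay above WT CON without overlap, by 0.80 ± 0.29 (adjusted p = 0.200), and in GFP-BM REPOP replicate 1 fell among the WT CON values. Gabrb1 showed the same arrangement, with 5.96 to 10.9 FPKM in WT CON, 11.4 to 13.6 FPKM in GFP-BM CON and 9.51 to 14.2 FPKM in GFP-BM REPOP, and differences of 0.59 ± 0.18 for both groups (adjusted p = 0.166 and 0.204). Gabrg1 gave 0.37 ± 0.18 and 0.25 ± 0.18 (adjusted p = 0.347 and 0.571). No sister of the cortex passed the test, against 0.32% of tested genes called for GFP-BM CON against WT CON, 0.734% for GFP-BM REPOP against WT CON and 0.0476% for GFP-BM REPOP against GFP-BM CON (unadjusted p under 0.05 in 2347, 2107 and 628). GFP-BM REPOP overlapped with GFP-BM CON for all 6 sisters in the cortex and in the thalamus, where 0% of tested genes were called between them (139 with an unadjusted p under 0.05).

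**Figure D3:**
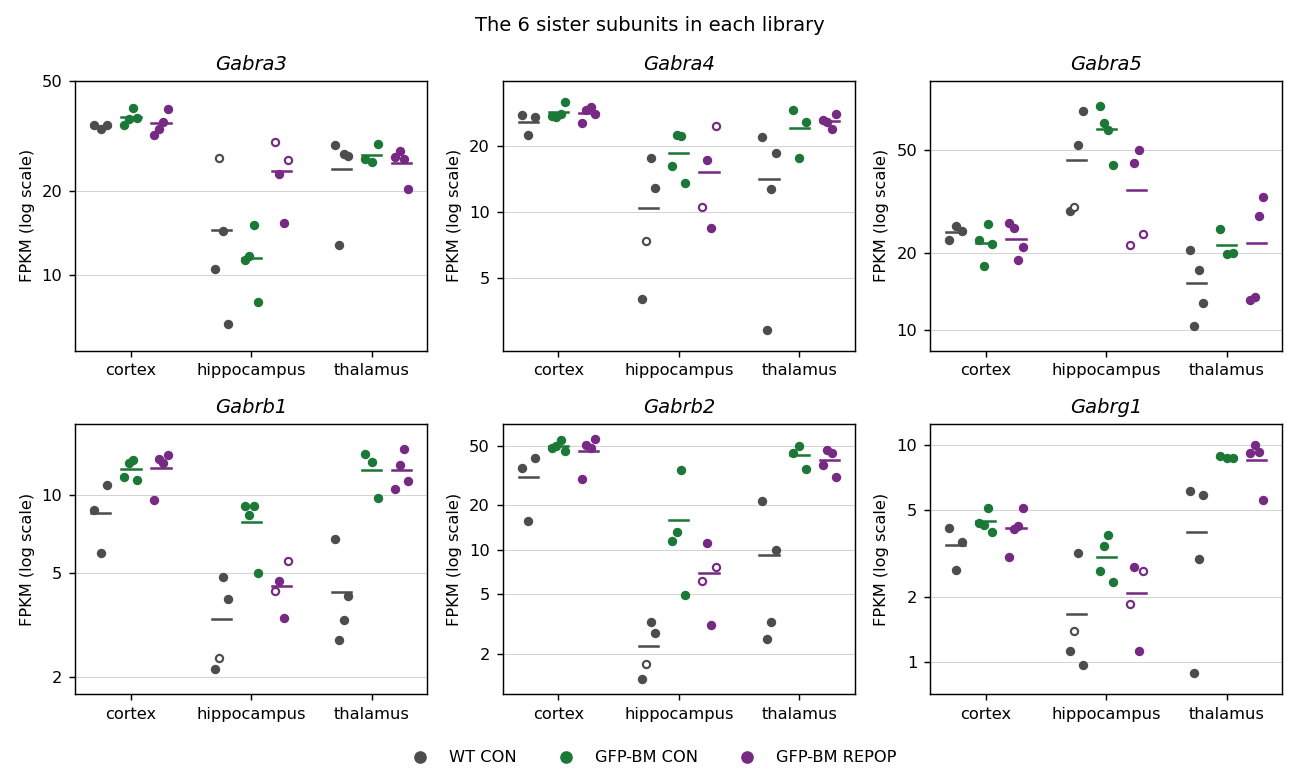
FPKM on a log axis for each sister subunit in each library, by region, with groups in colour; points are libraries, lines are group means, and open points are the 3 libraries labelled hippocampus that were low in hippocampal markers. Gabrb2 of the thalamus lies between 2.52 and 21.2 FPKM in WT CON and between 30.9 and 49.6 FPKM in transplanted mice, while Gabra3 of the cortex stays between 31.98 and 40.1 FPKM throughout.

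In each region the library with the highest GC measure, always a WT CON library, was the lowest for both Gabra2 and Gabrb2. At 1.24 in the cortex it held 3.16 FPKM of Gabra2 and 15.6 FPKM of Gabrb2, at 3.39 in the hippocampus 0.474 and 1.34 FPKM, and at 3.65 in the thalamus 0.582 and 2.52 FPKM. In the cortex GFP-BM REPOP replicate 1 had a GC measure of 0.994, above the 0.833 and 0.753 of WT CON replicates 1 and 3. Its Gabra2 was 14.3 FPKM against 6.38 and 8.48 FPKM there, while its Gabrb2 was 30.0 FPKM against 35.2 and 41.1 FPKM. The part of the GC measure in the level of either gene was not tested. In the hippocampus GFP-BM REPOP replicate 3 and WT CON replicate 4, with measures of 2.60 and 2.52, held 3.28 and 1.98 FPKM of Gabra2 and 3.14 and 2.74 FPKM of Gabrb2. In the thalamus the ranges of the measure did not overlap, and the nearest pair was WT CON replicate 1 at 1.09 and GFP-BM REPOP replicate 4 at 0.938. Gabra2 was 4.61 and 14.97 FPKM in these libraries, Gabrb2 21.2 and 30.9 FPKM, and Gabrb1 6.76 and 11.3 FPKM. These are single libraries, given as values.

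**Figure D4:**
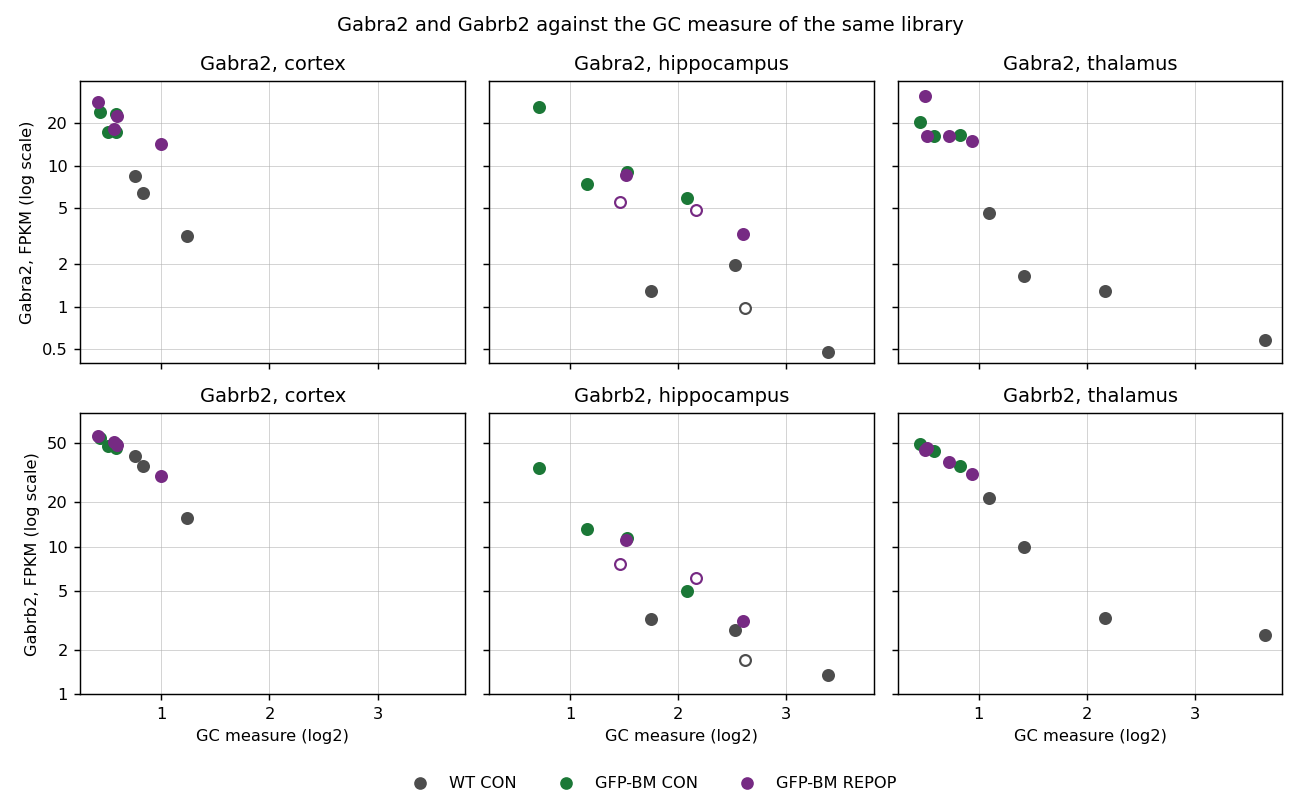
Gabra2 (upper panels) and Gabrb2 (lower panels) in FPKM on a log axis against the GC measure of the same library, by region, with groups in colour and open points for the 3 libraries labelled hippocampus that were low in hippocampal markers. In the cortex the transplanted library at a measure of 0.994 lies above the WT CON libraries at 0.833 and 0.753 for Gabra2, at 14.3 FPKM, and below them for Gabrb2, at 30.0 FPKM.

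Each library's smooth trend of level on GC content and transcript length was then removed and the fits repeated. The Gabra2 differences from WT CON fell to 1.37 ± 0.19, 2.04 ± 0.30 and 2.07 ± 0.25 (SE) in GFP-BM CON of cortex, hippocampus and thalamus, and to 1.5 ± 0.18, 1.67 ± 0.30 and 2.26 ± 0.23 in GFP-BM REPOP. The sisters' median difference from WT CON went from 0.26, 0.98 and 1.26 to -0.01, 0.27 and 0.36 in GFP-BM CON and from 0.19, 0.54 and 1.29 to -0.02, 0.13 and 0.34 in GFP-BM REPOP. Gabrb2 kept most of its size, at 2.16 in the hippocampus of GFP-BM CON and 2.15 in the thalamus of GFP-BM REPOP (limma adjusted p = 0.0469 and 0.0473), both then past the threshold, which 1.28% and 0.915% of the 13875 genes with a GC content passed in these comparisons (0% and 0.533% of the same genes without the correction). In the thalamus of GFP-BM CON it was at 2.26 (adjusted p = 0.0663) and did not pass. Gabrb1 kept little, at 0.31 ± 0.21 in the thalamus of GFP-BM REPOP (adjusted p = 0.370). Gabrg1 lay below WT CON in all 6 comparisons, at log2 differences of -0.11 to -0.35.

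**Figure D5:**
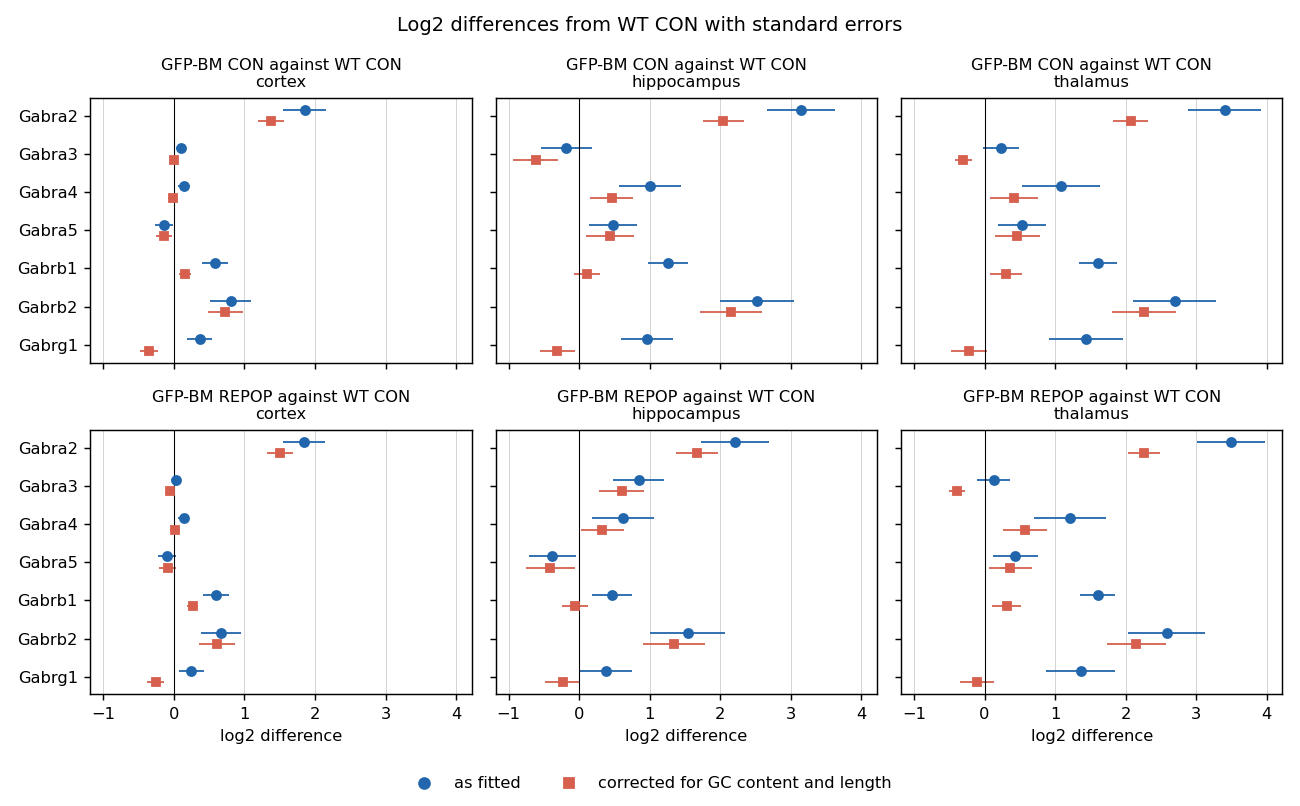
Log2 differences from WT CON with standard errors for Gabra2 and the 6 sisters, for GFP-BM CON (upper panels) and GFP-BM REPOP (lower panels) by region; circles are the values as fitted and squares those corrected for GC content and length. Gabra2 stays between 1.37 and 2.26 after correction, while Gabrg1 crosses to between -0.11 and -0.35.

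The regions themselves differed in their subunits, with the 3 treatment groups weighted equally. As fitted without the correction, the cortex exceeded the hippocampus in 6 of the 7 genes, among them Gabrb2 by 2.80 ± 0.31 (SE, limma adjusted p = 6.89e-08), Gabra2 by 1.74 ± 0.28 (adjusted p = 1.11e-05) and Gabra3 by 1.24 ± 0.16 (adjusted p = 8.96e-07), and fell below it for Gabra5, at -0.93 ± 0.18 (adjusted p = 0.000113). All 7 were called, where 57.3% of all tested genes were. Between hippocampus and thalamus 6 of 7 were called, against 50.6% of all genes, and Gabra5 was the only one of them higher in the hippocampus, by 1.23 ± 0.18 (adjusted p = 4.19e-06). Gabrg1 was lower there by -1.52 ± 0.23 (adjusted p = 7.80e-06) and Gabra2 by -1.04 ± 0.28 (adjusted p = 0.00301). Cortex and thalamus differed least, with 3 of 7 called against 43.3% of all genes. These were Gabrb2 at 0.84 ± 0.31 (adjusted p = 0.0328) and Gabra3 at 0.51 ± 0.17 (adjusted p = 0.0166), higher in the cortex, and Gabrg1 at -0.62 ± 0.24 (adjusted p = 0.0367), higher in the thalamus. Gabra2 missed the threshold between cortex and thalamus at 0.70 ± 0.29 (adjusted p = 0.0503). The Gabrb2 and Gabrg1 calls between cortex and thalamus were lost on leaving out any of 7 and of 11 of the 34 libraries (adjusted p = 0.0505 to 0.0766 and 0.0506 to 0.0706). The correction for GC content and length changed several of these values for the subunits poorest in G and C. Between cortex and hippocampus Gabrg1 turned from 0.89 to -0.48 (adjusted p = 0.00282), Gabrb1 went from 1.19 to -0.12 (adjusted p = 0.331) and Gabra2 from 1.74 to 0.56 (adjusted p = 0.00333). Between hippocampus and thalamus Gabra2 went to -0.29 (adjusted p = 0.111) and Gabrb1 from -0.83 to 0.01 (adjusted p = 0.938), so both calls were lost, and Gabrg1 went to -0.66 (adjusted p = 0.00015). Between cortex and thalamus Gabrg1 went to -1.14 (adjusted p = 7.30e-08) and Gabrb1 turned from 0.36 to -0.11, called in neither fit. Gabrb2, Gabra3, Gabra4 and Gabra5 kept their direction and their calls in all 3 pairs. Without the 3 doubtful libraries the Gabra5 differences grew to -1.16 ± 0.18 between cortex and hippocampus and 1.46 ± 0.18 between hippocampus and thalamus.

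Of 12 further subunits of the GABA-A and rho families on the list, 9 were in the table and 8 were tested. None passed between treatment groups in any region. Gabrd, the delta subunit of extrasynaptic receptors, stood in the hippocampus at a log2 difference of -0.75 ± 0.18 in GFP-BM CON against WT CON (limma adjusted p = 0.0715) and 0.84 ± 0.18 in GFP-BM REPOP against GFP-BM CON (adjusted p = 0.126), or -0.68 ± 0.15 and 0.55 ± 0.17 without the doubtful libraries (adjusted p = 0.225 and 0.495). Its longest transcript held 54.8% G and C, and its span overlaps Cfap74 by 6000 bases. Gabrg3 gave differences from WT CON of 0.37 to 1.14, and Gabre, Gabrq and Gabrr2, read at low levels, of -0.77 to 0.46. Between regions, Gabre and Gabrq, subunits of hypothalamic and brain stem receptors, were lower in the cortex than in the thalamus by -2.68 ± 0.26 and -3.01 ± 0.31 (adjusted p = 3.81e-09 and 7.48e-09). Both differences are as fitted, without a correction for GC content.

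The other inhibitory genes were tested from lists of receptor assembly and anchoring (18 genes tested), of GABA synthesis, release, uptake and chloride balance (11), of GABA-B receptors (5) and of glycine receptors (4), beside AMPA and NMDA receptor subunits (11). No gene of these lists passed in any of the 9 comparisons between treatment groups. Their median log2 differences in GFP-BM REPOP against WT CON of the thalamus were -0.14, -0.25, 0.47, 0.51 and 0.09, against -0.05 over all tested genes.

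Between regions more of these genes passed, where the background given above was 57.3% of all tested genes between cortex and hippocampus, 43.3% between cortex and thalamus and 50.6% between hippocampus and thalamus. All values of these lists are as fitted, without the correction for GC content and length. The GC measure ran from 0.411 to 1.24 in the cortex and from 0.713 to 3.39 in the hippocampus. The correction changed several subunit contrasts between regions, and its effect on these lists is not given here. From the glycine receptors all 4 were lower in the hippocampus than in the thalamus, among them Glra1, an adult alpha subunit, at -4.38 ± 0.29 (limma adjusted p = 9.53e-12), with Glra3 at -2.75, Glra2 at -1.09 and the beta subunit Glrb at -0.42. Against the cortex the hippocampus was lower in Glra3, Glrb and Glra2, by 2.39, 0.79 and 0.52, and the cortex fell below the thalamus in Glra1 at -3.90 and Glra2 at -0.58. Among the 11 genes of GABA synthesis and transport, 8 were lower in the hippocampus than in the thalamus and none was higher, against 50.6% of all tested genes called in either direction. Gad2, an enzyme that makes GABA, stood at -1.73 ± 0.28 (adjusted p = 1.70e-05) there, Slc6a11, a GABA transporter of astrocytes, at -1.19 ± 0.19 (adjusted p = 9.23e-06) and the transporter Slc6a12 at -0.80. In the cortex 7 of these 11 were lower than in the thalamus and none was higher, against 43.3% of all genes, led by Slc6a11 at -1.78, Slc6a12 at -1.27 and Slc6a13 at -1.0. Cortex and hippocampus differed in 4 of the 11, a share below the 57.3% of all genes, Gad2 at 1.24, Slc6a11 at -0.59, the chloride exporter Slc12a5 at 0.17 and the GABA-degrading enzyme Aldh5a1 at -0.14.

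Of the 18 genes of assembly and anchoring, 6 differed between hippocampus and thalamus, 4 higher and 2 lower, a share below the 50.6% of all tested genes. The largest differences were those of Hap1, which helps to return receptors to the surface, at -1.03 ± 0.13 (limma adjusted p = 5.20e-07), of Shisa7, an auxiliary receptor protein, at 0.81 ± 0.12 (adjusted p = 3.67e-06), and of Rdx, an anchor of alpha 5 receptors, at -0.77 ± 0.20 (adjusted p = 0.00201). Cortex and thalamus differed in 5 of the 18, against 43.3% of all genes, among them Hap1 at -1.47, Shisa7 at 0.48, Gabarapl2 at -0.29 and the adhesion protein gene Nlgn2 at 0.20. Cortex and hippocampus differed in 10, against 57.3%, with Rdx at 0.63 and Hap1 at -0.45. Among the 5 genes of GABA-B receptors the cortex exceeded the hippocampus in Kctd16, Kctd8 and Gabbr2, by 1.70, 0.68 and 0.31, and the thalamus in Kctd16 and Gabbr2, by 1.39 and 0.35, while Kctd8 was at -0.92 in the hippocampus against the thalamus. Of the 11 AMPA and NMDA receptor subunits, 9 differed between cortex and hippocampus, 9 between cortex and thalamus and 7 between hippocampus and thalamus, against 57.3%, 43.3% and 50.6% of all tested genes. These were led by Gria3, Gria2 and Gria4 between cortex and hippocampus (2.41, 2.23 and 1.97), by Gria2, Gria3 and Grin2d between cortex and thalamus (1.45, 1.4 and -1.24), and by Gria4, Grin3a and Gria3 between hippocampus and thalamus (-1.55, -1.06 and -1.01). The values of this paragraph too are as fitted, without the GC correction, and the part of the GC measure in them was not tested.

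Likeness to Gabra2 was described by Pearson's r of log2 levels over the 34 libraries after subtracting each region's mean. These levels keep the gap between WT CON and transplanted mice that chose the set, so the order is a description only. Gabrb2 was the most alike of the sisters (r = 0.947, rank 14 of all tested genes), followed by Gabrb1 (0.927, rank 97), Gabrg1 (0.780), Gabra4 (0.741), Gabra5 (0.383) and Gabra3 (0.223). The genes above them were Xkr4 (0.956), Erbb4 (0.954), Zfp81, Lmbrd2 and Rgs7bp (0.952 each), and those at the other end were Chtop (-0.898), Adar (-0.882) and Rbm42 (-0.874). The 5 most alike had transcripts of 37.4% to 42.6% G and C and the 3 least alike 45.6% to 61.5%, and the part of the libraries' GC measure in this order was not tested. Over the 23 libraries of transplanted mice, with region and group means subtracted, Gabrb2 still headed the sisters (r = 0.864, rank 49). Gabrg1 (0.672, rank 952), Gabra3 (0.639, rank 1179), Gabrb1 (0.618, rank 1301), Gabra4 (0.374) and Gabra5 (0.097) followed. The most alike genes there were Qser1 (0.917), Tmtc3 (0.909), Chm (0.901), Ranbp2 (0.9) and Pibf1 (0.893). Among the sisters, Gabrb1 was most like Gabrb2 (0.940), Gabra4 most like Gabrg1 (0.871), Gabra5 most like Gabrb1 (0.482), and Gabra3 most like Gabrg1 (0.388). Within transplanted mice Gabra3, Gabrb1 and Gabrg1 were each most like Gabrb2 (0.768, 0.775 and 0.802), Gabra4 was most like Gabrg1 (0.636), and Gabra5 was like none of them (0.097 at most).

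Of 3 genes whose expression is known to differ between C57BL/6 substrains, Nnt and Wdfy1 were higher in every transplanted library than in every WT CON library, as Gabra2 was within each region. The share of all tested genes without overlap over these pooled libraries is not given here. The paper names Nnt and Wdfy1 in the monocyte signature it drew from these same samples, so their p-values below retest genes already picked from these data. Nnt, a mitochondrial transhydrogenase, lay between 4.69 and 7.12 FPKM in the 11 WT CON libraries and between 7.50 and 10.9 FPKM in the 23 transplanted ones. Wdfy1, an adaptor of endosomes, lay between 3.54 and 8.26 FPKM in WT CON and between 10.8 and 21.6 FPKM in transplanted mice. Entpd4, a nucleotidase of the Golgi, ran the other way, at 43.4 to 68.9 FPKM against 21.3 to 47.0 FPKM, with overlap. In the cortex Nnt rose by 0.60 ± 0.08 (SE, limma adjusted p = 0.0138) in GFP-BM CON and Wdfy1 by 0.99 (adjusted p = 0.0367), in GFP-BM REPOP they rose by 0.73 and 1.19 (adjusted p = 0.00195 and 0.00851), and in the thalamus of GFP-BM REPOP they rose by 0.87 (adjusted p = 0.0172) and 1.67 (adjusted p = 0.0157). Of all tested genes 0.32%, 0.734% and 0.836% passed in these comparisons, in that order. In GFP-BM CON against WT CON of the hippocampus and thalamus 0% passed, so neither gene did. Other comparisons of these genes, and the tests of Entpd4, are not given here. The labels give C57BL/6 for every mouse and the methods a single supplier and stock for WT CON and host mice alike, and the part of substrain in the Gabra2 difference was not tested.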

How the data were processed

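RNA of 34 libraries of mouse cortex, hippocampus and thalamus with striatum was sequenced as paired reads. Per the labels and methods the authors aligned reads with STAR to mm10 and counted them with featureCounts, and the deposited values are FPKM per gene. Whether counting was stranded and which gene lengths were used are not given in the sources used here. Whole reads were recovered from the FPKM steps for 100.0% of 16389 genes (tolerance 0.0001), with 17085018 to 26010509 reads per library (median 21367227).

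Samples were grouped by title and treatment. Genes at 1 FPKM in at least 3 libraries numbered 15053, and without 343 of other biotypes 14710 were tested on log2(FPKM + 0.1), since FPKM are not counts. limma 3.58.1 in R 4.3.3 (trended empirical Bayes, two-sided, Benjamini-Hochberg, threshold 0.05) was fitted per region with all 3 groups, and for contrasts between regions over 9 groups, with animals as random blocks (estimated correlation of libraries of 1 animal -0.038). GC content and length came from the longest GENCODE transcript (GRCm38) for 13875 genes (94.3%), and the correction used natural splines of 5 degrees of freedom each. The fit was tested on simulated data.

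The members and gene lists were chosen with earlier results of these data known. Gabra2 was not tested against WT CON, and a planned test of whether that gap differed between regions is not reported, since it rests on the values that chose the set. Named were all 7 members, all other GABA-A and rho subunits in the table, of each further list every called gene where 5 or fewer were called and otherwise the 3 with the largest difference, the substrain candidates, and the genes most and least like Gabra2. Alternatives covered the pseudocount, filter, scaling, fit, weights, recovered reads (voom), GC correction and leaving out each library. Labels do not say more of replicates than that they are separate animals, so p-values measure the spread between these animals. Gabrp, Gabrr1 and Gabrr3 were not analysed here, and some named genes are not reported here.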

Additional observations from a re-analysis of the deposited data

Results flagged for a closer look

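In 49 sets of 4 libraries, 1 for each subunit in each group and region that had 4, a highest or lowest library was looked for that stood far from the other 3 relative to the range of the set. Chance gives such a library in about 1 in 20 sets, and 5 were found. Gabra2 was highest in GFP-BM REPOP replicate 3 of the thalamus, at 31.31 FPKM. Gabra3 was lowest in WT CON replicate 2 of the thalamus, at 12.86 FPKM, in the library whose GC measure of 3.65 was the highest of all 34. Gabrb1 was lowest in GFP-BM REPOP replicate 1 of the cortex, at 9.514 FPKM, and in GFP-BM CON replicate 4 of the hippocampus, at 4.998 FPKM. Gabrg1 was lowest in GFP-BM REPOP replicate 4 of the thalamus, at 5.595 FPKM.

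Gabra6, the alpha 6 subunit known from cerebellar granule cells, did not pass the filter and entered no comparison. It was listed at 28.0 FPKM (1341 reads) in GFP-BM CON replicate 2 of the thalamus and under 1 FPKM in the 33 other libraries, where the highest value was 0.755 FPKM and 11 libraries were at 0. Gabra2 in that library was 20.5 FPKM, against 16.3 and 16.4 FPKM in the other GFP-BM CON libraries of the thalamus.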

How the results depend on the processing

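In all alternatives Gabra2 was higher in both transplanted groups than in WT CON of every region. Between the transplanted groups of the cortex, where its difference was -0.00, the sign turned with the correction for GC content (0.13), quantile normalization (0.0115), array weights (0.0172) and voom on recovered reads (0.003). The GC correction moved the Gabra2 difference from WT CON by more than the spread between replicates in GFP-BM CON of the cortex (1.37), hippocampus (2.04) and thalamus (2.07) and in GFP-BM REPOP of the thalamus (2.26). The cause was not tested for any change listed here.

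With the GC correction small differences of sisters changed sign. In the cortex against WT CON, Gabra3 was at -0.056 and Gabrg1 at -0.26 in GFP-BM REPOP, and Gabra3 at -0.0043, Gabra4 at -0.011 and Gabrg1 at -0.35 in GFP-BM CON, while Gabra4 was at 0.024 and Gabrg1 at 0.10 between the transplanted groups. In the hippocampus Gabrb1 was at -0.061 and Gabrg1 at -0.23 in GFP-BM REPOP, Gabrg1 at -0.31 in GFP-BM CON and at 0.077 between them. In the thalamus Gabra3 was at -0.39 and Gabrg1 at -0.11 in GFP-BM REPOP, Gabra3 at -0.30 and Gabrg1 at -0.22 in GFP-BM CON, and Gabrg1 at 0.11 between them. Gabra4 of the cortex also turned between the transplanted groups with quantile normalization (0.0028) and array weights (0.006). Array weights turned Gabra3 of the thalamus (-0.073 in GFP-BM REPOP, -0.012 in GFP-BM CON) and Gabra4 and Gabrb1 between the transplanted groups there (-0.0133 and -0.0134). Without the hippocampus libraries low in hippocampal markers, an alternative chosen after seeing the data, as was the fit of genes with a GC content and no correction, Gabra3 in GFP-BM CON against WT CON was at 0.17.

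The count of sisters called was 1 in GFP-BM REPOP against WT CON of the thalamus and 0 in the other comparisons, and it moved as follows. The percent of all tested genes called in the same comparison and fit stands after each count. In GFP-BM REPOP of the thalamus (0.836% as reported) the count was 2 with a pseudocount of 1 (2.65%), no filter (1.55%), quantile normalization (3.37%) or array weights (5.16%), 3 with all 9 groups in a single fit (13.3%), and 0 with only the 2 groups compared (0.0952%). With the GC correction 1 was called there (0.915%), but it was Gabrb2 in place of Gabrb1. In GFP-BM CON of the thalamus (0%) it was 2 with a pseudocount of 1 (1.75%), quantile normalization (2.16%) or array weights (4.45%) and 3 with all 9 groups (9.16%). In GFP-BM CON of the hippocampus (0%) it was 1 with the GC correction (1.28%), 3 with array weights (2643 of 14710 genes) and 2 with all 9 groups (19.4%). Between the transplanted groups of the hippocampus (0.0272%) it was 2 with array weights (6.95%) and 1 with all 9 groups (4.52%). The settings that called more sisters thus called more genes in all. Between cortex and thalamus 5 members were called with voom (45.6%) against 3 (43.3%), and within WT CON only 3 were called between hippocampus and thalamus (17.7%) against 6 (50.6%).

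With the replicate number of the titles as a block, 0 sisters and 0.0748% of all genes were called in GFP-BM REPOP against WT CON of the thalamus, and Gabra4 turned to -0.006 between the transplanted groups there. The deviations of same-numbered samples correlated at -0.433 to 0.490. The titles give such samples of different groups different animal numbers, so replicate numbers do not mark the same animal across groups.

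Leaving out each library in turn, differences near 0 crossed it. Gabra3 ranged from -0.030 to 0.074 in GFP-BM REPOP of the cortex, from -0.49 to 0.17 in GFP-BM CON of the hippocampus, and from -0.15 to 0.25 and -0.043 to 0.35 in GFP-BM REPOP and GFP-BM CON of the thalamus. Between the transplanted groups of the cortex the ranges were -0.17 to 0.16 for Gabra2, -0.046 to 0.040 for Gabra4, -0.045 to 0.14 for Gabra5, -0.054 to 0.14 for Gabrb1, -0.24 to 0.060 for Gabrb2 and -0.23 to 0.0145 for Gabrg1. In the thalamus they were -0.15 to 0.20 for Gabra2, -0.080 to 0.29 for Gabra4, -0.33 to 0.11 for Gabra5, -0.16 to 0.11 for Gabrb1, -0.25 to 0.0037 for Gabrb2 and -0.16 to 0.11 for Gabrg1. Sisters called ranged from 0 to 3 in GFP-BM CON of the hippocampus (3 without WT CON replicate 3, with 6.55% of all genes called, and 2 without GFP-BM CON replicate 4, with 5.4%), from 0 to 2 in GFP-BM REPOP of the thalamus (2 without WT CON replicate 1, with 12.2%) and from 0 to 2 in GFP-BM CON of the thalamus (2 without WT CON replicate 1, with 8.01%). Members called between cortex and thalamus ranged from 1 without GFP-BM CON replicate 3 of the thalamus (37.8% of all genes) to 5 without WT CON replicate 1 of the thalamus (47.8%).

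The spread within groups limits the hippocampus and thalamus most: the SD of log2 Gabra2 was 0.468 for cortex, 0.777 for hippocampus and 0.773 for thalamus. At 27 reads the lowest Gabra2 library is limited by counting error too.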
